A study of Homo sapiens with 27 samples.

Results

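The comparison asks in which genes the same CARM1 hairpin had a different effect in 2 acute myeloid leukaemia (AML) cell lines, MV411 and SKNO1. It uses 12 of the 27 libraries of the series, 3 in each of 4 groups: MV411 with hairpin 2, MV411 with a scramble hairpin, SKNO1 with hairpin 2 and SKNO1 with the scramble hairpin. All cells carried a lentivirus that expresses its hairpin constitutively, and RNA was taken 3 days after the hairpins were introduced. MV411 carries a KMT2A fusion gene and SKNO1 the RUNX1-RUNX1T1 fusion gene. SKNO1 was grown with 10 ng/mL GM-CSF, a myeloid growth factor, and MV411 without a supplement, so that the line and its growth factor cannot be told apart. The rule takes every gene, and 19900 of the 57992 genes in the table passed the filter on low counts and were tested. For each gene, the hairpin 2 effect in a line is the log2 fold change of hairpin 2 over scramble. The line difference is the effect in MV411 minus the effect in SKNO1, so that a positive value means a higher effect in MV411. Effects are given ± SE and levels as CPM (the share of a library's counts, scaled by TMM). Unless another fit or test is named, each adjusted p is from edgeR's quasi-likelihood test with Benjamini-Hochberg adjustment over the 19900 genes. The threshold is 0.05.

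CARM1, also named PRMT4, is an enzyme that methylates arginine residues of histone H3 and of other proteins, among them the SWI/SNF subunit SMARCC1 and the transcription factor RUNX1. It acts as a coactivator for many transcription factors, E2F1 and NF-kB among them. In blood cells it is known for holding back myeloid differentiation. E2F factors drive the genes of DNA replication, and the interferon response acts through a short element in the promoters of antiviral genes.

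CARM1 (chr19:10871513-10923070 on the plus strand of GRCh38, its whole span from the annotation) had 3.01, 4.25 and 2.87 CPM in the 3 MV411 libraries with hairpin 2, against 24.8, 25.1 and 26.2 CPM in MV411 scramble libraries. It had 3.01, 2.90 and 3.14 CPM in SKNO1 libraries with hairpin 2, against 17.6, 19.5 and 21.7 CPM in SKNO1 scramble libraries. The groups did not overlap in either line. The RNA left was 13.3% ± 2.99 of the scramble mean in MV411 and 15.4% ± 0.600 in SKNO1 (SD, n = 3 each). The effect was -2.92 ± 0.18 in MV411 and -2.70 ± 0.17 in SKNO1, and the line difference of -0.22 ± 0.24 did not pass (adjusted p = 0.741). A difference that misses the threshold does not show that the loss was equal.

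The 12 libraries held 25063577 to 39718356 expected counts. The defining genes of each line were where its label puts them: RUNX1T1 had 1 and 0 counts in the MV411 hairpin 2 and scramble groups, against 118 and 77.5 CPM in the SKNO1 groups, and MEIS1 had 105 and 101 CPM in the MV411 hairpin 2 and scramble groups, against 1 and 0 counts in the SKNO1 groups. CD3E, MS4A1, COL1A1 and EPCAM, which mark T cells, B cells, fibroblasts and epithelium, had 0 to 2 counts in each group. Mitochondrial rRNA took 31.1% ± 1.92 of the counts in MV411 with hairpin 2 and 26.2% ± 1.47 in MV411 scramble libraries, but under 1% in SKNO1. Small structured RNAs, which are the 7SL and 7SK RNAs and the RNA parts of the RNases P and MRP, took 25.2% ± 3.01 in SKNO1 with hairpin 2 and 18.6% ± 1.14 in SKNO1 scramble libraries (SD, n = 3 each; two-sided exact permutation p = 0.1 for each of both differences, the smallest that 3 against 3 allows, and adjusted p = 0.3 over 6 such tests). Without these RNAs in the library sizes, 412 genes passed for the line difference, 399 of them among the 425 of the full libraries. Replicates 1 and 3 of SKNO1 scramble were closer to each other than any other pair of replicates in the series (chi-square per gene 7.75, next lowest 23.2), and replicate 2 of MV411 scramble had lower levels of cell cycle genes than its fellows, so that the counts of line differences are given below with and without these libraries.

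The line difference passed the threshold in 425 genes, 2.14% of those tested, of which 249 were higher (1.25%) and 176 lower (0.884%) in MV411 relative to SKNO1. The effect itself passed in 3234 genes in MV411 (16.3%) and in 2337 genes in SKNO1 (11.7%). In MV411 8.48% of genes rose and 7.77% fell, and in SKNO1 5.98% rose and 5.76% fell. With no line difference past the threshold, 419 genes rose and 499 fell in both lines. Among the 249 genes with a positive line difference, 154 rose in MV411 and did not pass in SKNO1, 41 fell in SKNO1 and did not pass in MV411, 29 rose in MV411 and fell in SKNO1, and 21 rose in both. Among the 176 with a negative one, 71 fell in MV411 and did not pass in SKNO1, 59 rose in SKNO1 and did not pass in MV411, 24 fell in both, and 19 fell in MV411 and rose in SKNO1. Both lines expressed most of these genes: 346 of the 425, or 81.4%, had a mean of at least 1 CPM in each line, and 2.81% of the 12324 such genes passed. Over those 12324 genes the effects in both lines correlated with Pearson r = 0.557 and Spearman rho = 0.519, as a description across genes of 1 experiment. Over all 19900 genes tested the values were lower, at r = 0.321 and rho = 0.379. Protein-coding genes made up 93.6% of the positive and 93.2% of the negative calls, against 69.7% of all genes tested.

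**Figure D1:**
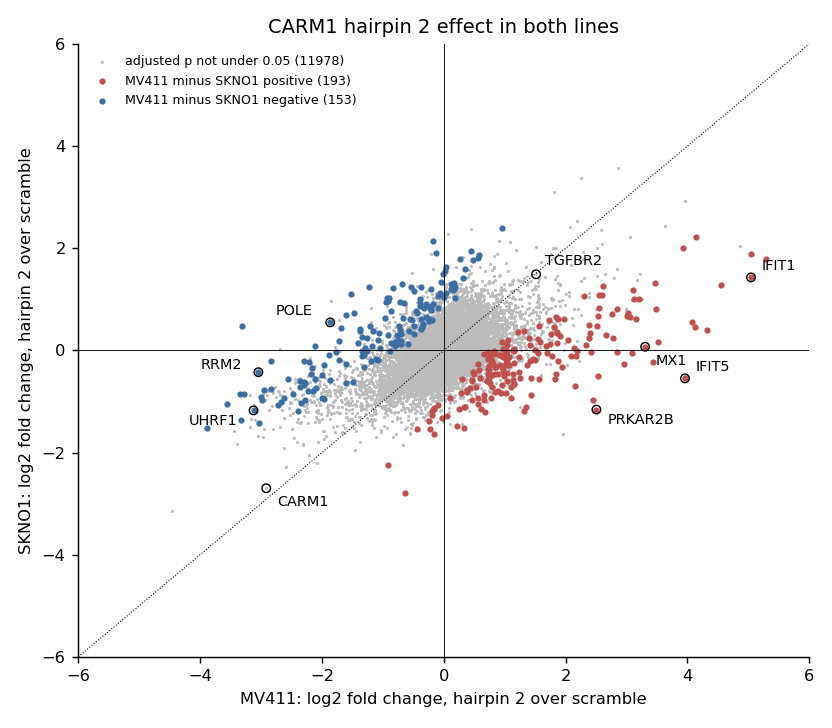
Hairpin 2 effect (log2 fold change over scramble) in MV411 on the x axis and in SKNO1 on the y axis for the 12324 genes with a mean of at least 1 CPM in each line, with 1 gene outside the axes. Red points (193) have a line difference past the threshold that is positive, blue points (153) one that is negative, and the dotted line marks equal effects. CARM1 and TGFBR2 lie near that line, PRKAR2B to the lower right and POLE to the upper left.

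The number of calls depends on the libraries. Leaving out 1 library at a time gave 150 to 551 calls, the lowest without replicate 1 of SKNO1 scramble and the highest without replicate 2 of MV411 with hairpin 2, and summing the 2 near-alike SKNO1 scramble libraries to 1 gave 187 calls, 186 of them among the 425. A fit of all 27 libraries gave 197 calls, 80 higher and 117 lower, 173 of them among the 425. Deviations of same-numbered libraries from their group means correlated at 0.162, 0.52 and 0.233 in MV411 and at 0.197, -0.028 and -0.09 in SKNO1. In MV411, replicate 3 with hairpin 2 correlated more with scramble replicate 1 (0.272), so pairing by replicate number is an assumption. With the number as a block in MV411 880 genes passed, 424 of them among the 425, and with a block in each line 735 did, 403 of them among the 425. Wherever an alternative tested one of the 425 genes, its sign was the same. The alternatives use these same libraries, so the sign is no independent check. Over all 19900 genes, 3005 were under an unadjusted p of 0.05 for the line difference, DESeq2 called 1018 and limma-voom 364. The list counts below stand against these numbers.

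Most DNA replication genes fell in both lines, with a negative line difference in 13 of them. Of 51 tested genes of the E2F and replication list, 47 fell in MV411 (all genes 7.77%) with a list median of -1.90, and 34 fell and 1 rose in SKNO1 (all genes 5.76% lower, 5.98% higher) with a median of -0.97. The line difference passed in 13 of them (all genes 0.884% lower), each negative and between -2.62 and -1.55. They were RRM2, E2F2, POLE, CDC45, TK1, E2F1, CHAF1B, UHRF1, MCM5, CDT1, MCM2, GINS2 and MCM7. The median line difference was -0.78 in the list and 0.03 over all genes. Without replicate 2 of MV411 scramble, 18 members passed, and with the 2 near-alike SKNO1 scramble libraries summed 5 did. DESeq2 called 17 and limma-voom 9, and 19 passed with the replicate block in MV411.

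POLE, the catalytic subunit of the leading-strand DNA polymerase epsilon, was the 1 member that passed in opposite directions. It had 15.7, 20.6 and 17.9 CPM in MV411 with hairpin 2, against 72.1, 55.1 and 70.2 CPM in MV411 scramble libraries. It had 387, 408 and 444 CPM in SKNO1 with hairpin 2, against 286, 262 and 299 CPM in SKNO1 scramble libraries. The MV411 hairpin 2 libraries were all below, and the SKNO1 hairpin 2 libraries all above, those of their scramble group. The effect was -1.87 ± 0.15 in MV411 (adjusted p = 1.04e-05) and 0.55 ± 0.15 in SKNO1 (adjusted p = 0.0272), with a line difference of -2.41 ± 0.21 (adjusted p = 2.17e-04) that passed under all 23 alternatives. UHRF1, which guides maintenance DNA methylation to newly copied DNA, had 11.7, 10.3 and 11.7 CPM in MV411 with hairpin 2, against 104, 70.3 and 120.0 CPM in MV411 scramble libraries. It had 17.0, 11.9 and 16.7 CPM in SKNO1 with hairpin 2, against 29.6, 40.0 and 33.5 CPM in SKNO1 scramble libraries. It thus fell in both lines without overlap, with effects of -3.12 ± 0.22 in MV411 and -1.17 ± 0.20 in SKNO1 (line difference -1.95 ± 0.29, adjusted p = 0.00530).

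RRM2, the small subunit of ribonucleotide reductase, had 11.4, 3.62 and 12.7 CPM in MV411 with hairpin 2, against 121, 32.7 and 77.1 CPM in MV411 scramble libraries. It had 60.0, 38.5 and 47.1 CPM in SKNO1 with hairpin 2, against 57.0, 82.6 and 56.2 CPM in SKNO1 scramble libraries. The MV411 groups did not overlap and the SKNO1 groups did. Its line difference of -2.62 ± 0.62 was just past the threshold (adjusted p = 0.0475) and passed in 12 of the 23 alternatives. CDC45, part of the replicative helicase, had 1.45, 0.805 and 2.04 CPM in MV411 with hairpin 2, against 27.04, 12.5 and 25.4 CPM in MV411 scramble libraries. Its SKNO1 levels were 10.3, 6.41 and 10.2 CPM with hairpin 2, against 21.6, 33.9 and 21.7 CPM with scramble, and it fell in both lines without overlap. Its line difference was -2.37 ± 0.48 (adjusted p = 0.0233). MCM5, another helicase subunit, fell in both lines, with effects of -2.36 ± 0.21 in MV411 and -0.71 ± 0.20 in SKNO1 (line difference -1.65 ± 0.29, adjusted p = 0.0101). The transcription factors E2F1 and E2F2 had line differences of -2.02 ± 0.40 and -2.50 ± 0.48 (adjusted p = 0.0217 and 0.0172). RPA2, which binds single-stranded DNA, was the member with the smallest p of positive sign, and its line difference of 0.53 ± 0.22 did not pass (adjusted p = 0.271).

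The promoters of POLE and CDC45 are shown because these genes lie at both ends of the replication pattern, opposite and alike in direction, and both hold an E2F site close to the start. The sequences are from RefSeq on GRCh38.p14, 250 bases before to 50 after the gene's start in the gene's own direction, with capitals for the E2F match. POLE is at chr12:132687293-132687592 on the minus strand and CDC45 at chr22:19479670-19479969 on the plus strand.
POLE: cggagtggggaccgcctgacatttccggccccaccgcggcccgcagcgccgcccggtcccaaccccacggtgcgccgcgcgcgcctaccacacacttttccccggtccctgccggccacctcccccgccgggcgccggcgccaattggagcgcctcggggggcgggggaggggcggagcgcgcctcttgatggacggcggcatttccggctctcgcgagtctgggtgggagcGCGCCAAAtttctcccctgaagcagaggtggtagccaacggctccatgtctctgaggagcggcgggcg
CDC45: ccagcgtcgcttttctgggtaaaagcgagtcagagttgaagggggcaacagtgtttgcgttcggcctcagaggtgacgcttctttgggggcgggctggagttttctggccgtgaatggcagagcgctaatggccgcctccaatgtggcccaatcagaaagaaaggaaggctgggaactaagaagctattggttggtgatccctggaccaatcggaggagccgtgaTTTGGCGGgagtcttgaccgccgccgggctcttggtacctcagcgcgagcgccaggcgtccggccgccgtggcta
The match in POLE begins at base -18 and that in CDC45 at base -25 from the start. Any of the letters TTTGGCGC, TTTCCCGC, TTTGGCGG or TTTCGCGC, on either strand, was found in 25 of the 42 list members with a promoter in the table (59.5%), against 3.43% of all 27305 promoters and 5.4% of those of tested genes. It was in 9 of 12 members that passed for the line difference and in 16 of 30 that did not, as a description with no test.

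Most mitosis genes fell in MV411. Of 40 tested, 35 fell in MV411 (all genes 7.77%) with a median of -1.93, and 4 in SKNO1 (all genes 5.76%) with a median of -0.80. For the SKNO1 effect, 15 were under an unadjusted p of 0.05 (5207 of all 19900 genes). DESeq2 called 5 (all genes 3182) and limma-voom 3 (all genes 2550). With the near-alike SKNO1 scramble libraries summed 0 passed in SKNO1 (all genes 1176), and with the replicate block in MV411 14 did (all genes 3629). The line difference passed in 2 (all genes 0.884% lower), INCENP and AURKB, both parts of the chromosomal passenger complex. The count of 2 depended on the fit: 14 members were under an unadjusted p of 0.05 (3005 of all 19900 genes). DESeq2 called 6 (all genes 1018) and limma-voom 0 (all genes 364). Without replicate 2 of MV411 scramble 5 passed (all genes 383). With the near-alike SKNO1 scramble libraries summed 0 did (all genes 187), and with the replicate block in MV411 5 (all genes 880). AURKB had 2.65, 1.61 and 3.54 CPM in MV411 with hairpin 2, against 26.1, 9.62 and 20.6 CPM in MV411 scramble libraries. The SKNO1 libraries had 4.86, 4.61 and 6.12 CPM with hairpin 2, against 8.81, 9.11 and 8.37 CPM with scramble. The groups did not overlap in either line, and the line difference was -2.08 ± 0.46 (adjusted p = 0.0340). PLK1, the polo-like mitotic kinase, had a line difference of -1.81 ± 0.48 that did not pass (adjusted p = 0.0710, or 0.0417 with the replicate block in MV411).

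Of 68 tested replication-dependent histone genes, 59 fell in MV411 (all genes 7.77%) with a median of -2.04. In SKNO1 2 of them fell, a share below that of all genes (5.76%), with a median of -0.70. That SKNO1 count depended on the fit: 26 members were under an unadjusted p of 0.05 (5207 of all 19900 genes). DESeq2 called 6 (all genes 3182) and limma-voom 2 (all genes 2550). With the near-alike SKNO1 scramble libraries summed 2 passed in SKNO1 (all genes 1176), and with the replicate block in MV411 22 did (all genes 3629). A line difference past the threshold was found in 4 (all genes 0.884% lower), HIST2H2AA4, HIST1H2AK, HIST2H2BE and HIST1H2AC, with a median of -1.43 over the list. This count too depended on the fit: 46 members were under an unadjusted p of 0.05 (3005 of all 19900 genes). DESeq2 called 20 (all genes 1018) and limma-voom 3 (all genes 364). Without replicate 2 of MV411 scramble 16 passed (all genes 383). With the near-alike SKNO1 scramble libraries summed 1 did (all genes 187), and with the replicate block in MV411 23 (all genes 880). HIST1H2AK had 3.29, 2.46 and 1.79 CPM in MV411 with hairpin 2, against 10.6, 9.04 and 14.1 CPM in MV411 scramble libraries. For SKNO1 the values were 9.68, 12.9 and 14.5 CPM with hairpin 2, against 11.4, 18.0 and 17.6 CPM with scramble, so that only the MV411 groups were apart. HIST2H2AA4 has a near-identical copy, HIST2H2AA3, whose line difference was -1.17 ± 0.50 (adjusted p = 0.279), and reads may be split between both. CDKN2C is an inhibitor of the G1 kinases CDK4 and CDK6. In the list of cell cycle inhibitors and G1 genes it was the 1 of 25 to pass (all genes 0.884% lower). It had 4.21, 3.76 and 4.85 CPM in MV411 with hairpin 2, against 15.5, 9.81 and 16.3 CPM in MV411 scramble libraries, and 71.7, 80.2 and 76.2 CPM in SKNO1 with hairpin 2, against 50.7, 65.5 and 53.05 CPM in SKNO1 scramble libraries (line difference -2.12 ± 0.27, adjusted p = 0.00203).

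Replicate 2 of MV411 scramble moved with these lists. Its mean over the members lay 0.587 (E2F and replication), 0.844 (mitosis) and 0.663 (histones) below the MV411 scramble mean on the log2 scale, while replicates 1 and 3 lay above it. Replicate 2 of MV411 with hairpin 2 was also the lowest of its group in these lists, at -2.205, -2.753 and -2.309. In SKNO1, scramble replicate 2 lay 0.266, 0.463 and 0.508 above its group mean, with replicates 1 and 3 below it. The part of MV411 scramble replicate 2 in the line differences was measured by leaving it out: 383 genes then passed, 301 of them among the 425.

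**Figure D2:**
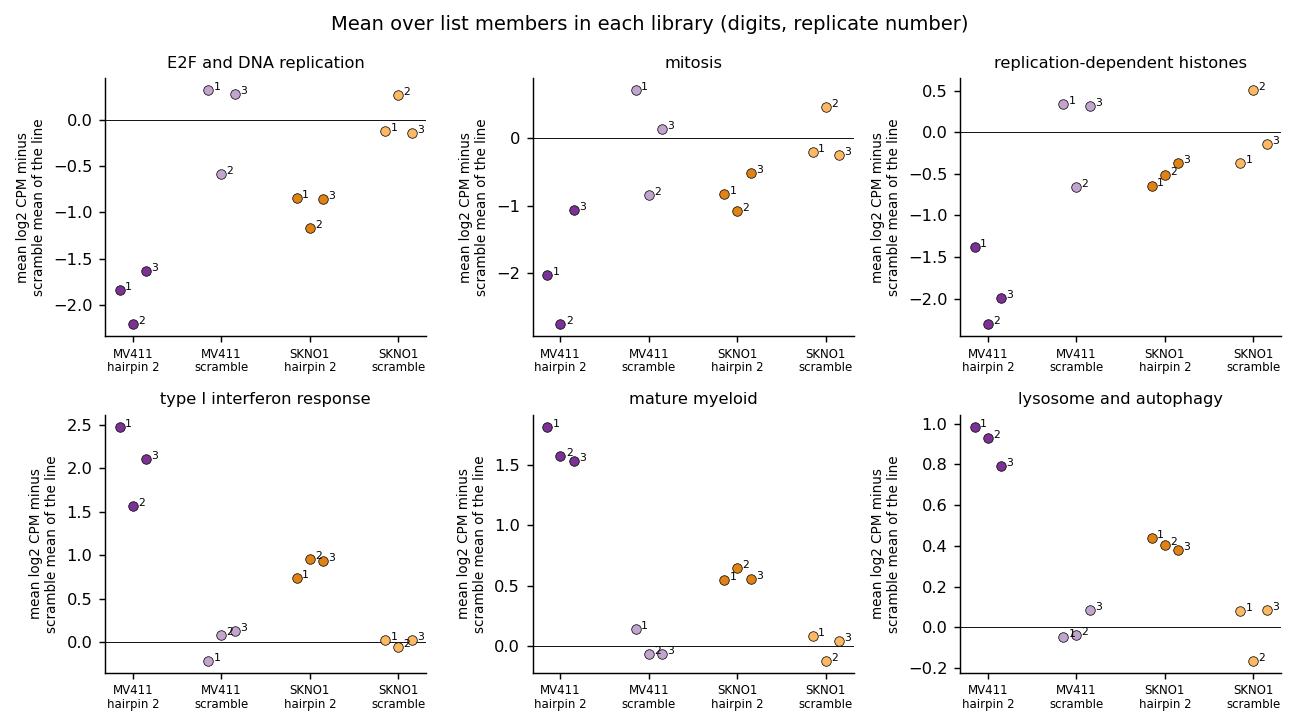
Mean log2 CPM over the members of 6 gene lists in each of the 12 libraries, minus the scramble mean of the same line (y axis), with the 4 groups on the x axis and the replicate number beside each point. For the E2F and replication list the MV411 hairpin 2 libraries lie at -2.205 to -1.633 and the SKNO1 hairpin 2 libraries at -1.169 to -0.840; for the interferon list they lie at 1.567 to 2.477 and 0.740 to 0.962.

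Of 46 tested interferon-response genes, 41 rose in MV411 (all genes 8.48%) with a median of 1.77, and 22 rose and 1 fell in SKNO1 (all genes 5.98% higher, 5.76% lower) with a median of 0.80. The line difference passed in 15 (all genes 1.25% higher), each positive: IFIT5, IFIT1, IFIT3, MX1, HERC5, IFIT2, IFI44, SAMD9L, DDX60, OAS3, IFIH1, MX2, EIF2AK2, HERC6 and IFITM1, between 1.18 and 4.51. The other 31 members include OAS1, OAS2, IFI44L and ISG15, which rose in both lines, with line differences between -0.39 (IFI44L) and -0.09 (OAS2) that did not pass. The count was 1 in the fit of all 27 libraries, 9 with the near-alike SKNO1 scramble libraries summed, and 7 to 23 when 1 library was left out. DESeq2 called 21 and limma-voom 8, and 15 passed without replicate 2 of MV411 scramble.

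IFIT1, an antiviral protein that binds foreign RNA, had 31.5, 7.56 and 15.7 CPM in MV411 with hairpin 2, against 0.431, 0.635 and 0.566 CPM in MV411 scramble libraries. It had 9.68, 10.8 and 9.08 CPM in SKNO1 with hairpin 2, against 3.92, 3.54 and 3.51 CPM in SKNO1 scramble libraries. The groups did not overlap in either line, and replicate 2 was the lowest of the MV411 hairpin 2 libraries. The effect was 5.04 ± 0.45 in MV411 and 1.43 ± 0.36 in SKNO1 (line difference 3.61 ± 0.56, adjusted p = 0.00621). IFIT5, a relative encoded close by, had 7.75, 2.77 and 5.68 CPM in MV411 with hairpin 2, against 0.216, 0.211 and 0.594 CPM in MV411 scramble libraries. It had 9.68, 12.5 and 11.7 CPM in SKNO1 with hairpin 2, against 16.8, 17.6 and 15.2 CPM in SKNO1 scramble libraries. Its level in MV411 with hairpin 2 thus stayed below that of both SKNO1 groups, and its line difference was 4.51 ± 0.52 (adjusted p = 0.00134).

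MX1, a GTPase that blocks the replication of RNA viruses, had 83.8, 39.5 and 61.1 CPM in MV411 with hairpin 2, against 3.45, 7.27 and 7.83 CPM in MV411 scramble libraries. It had 0.857, 1.12 and 1.22 CPM in SKNO1 with hairpin 2, against 1.30, 0.722 and 1.01 CPM in SKNO1 scramble libraries, where the groups overlapped. The line difference was 3.23 ± 0.49 (adjusted p = 0.00596). HERC5, the ligase that attaches ISG15 to new proteins, had 34.8, 13.4 and 18.2 CPM in MV411 with hairpin 2, against 3.96, 2.04 and 2.63 CPM in MV411 scramble libraries. In SKNO1 its levels were 14.4, 12.2 and 12.9 CPM with hairpin 2, against 16.7, 16.3 and 14.7 CPM with scramble (line difference 3.23 ± 0.43, adjusted p = 0.00323). IFITM1, a membrane protein that blocks virus entry, passed through its fall in SKNO1, with an effect of -0.74 ± 0.15 (adjusted p = 0.00823), with an effect of 0.44 ± 0.15 in MV411 that did not pass (adjusted p = 0.0673).

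OAS1, which makes the messenger that activates RNase L, had 31.2, 16.8 and 28.2 CPM in MV411 with hairpin 2, against 2.01, 3.62 and 2.57 CPM in MV411 scramble libraries. In SKNO1 it had 1.12, 1.36 and 1.53 CPM with hairpin 2, against 0.137, 0.149 and 0.110 CPM with scramble. It rose by 3.21 ± 0.27 in MV411 and 3.31 ± 0.37 in SKNO1, with a line difference of -0.10 ± 0.37 (adjusted p = 0.956). IRF9, a transcription factor of the response, rose by 1.54 ± 0.19 in MV411 and 1.34 ± 0.19 in SKNO1, with a line difference of 0.19 ± 0.27 that did not pass (adjusted p = 0.810). BST2, a protein that tethers virus particles to the cell, was the member with the smallest p of negative sign, and its line difference of -0.77 ± 0.29 did not pass (adjusted p = 0.222).

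The promoters of IFIT1 and IFIT5 are shown because they gave the largest line differences of the list. Both are from RefSeq on GRCh38.p14 and on the plus strand, IFIT1 at chr10:89392373-89392672 and IFIT5 at chr10:89414318-89414617, with capitals for the core of the interferon-stimulated response element.
IFIT1: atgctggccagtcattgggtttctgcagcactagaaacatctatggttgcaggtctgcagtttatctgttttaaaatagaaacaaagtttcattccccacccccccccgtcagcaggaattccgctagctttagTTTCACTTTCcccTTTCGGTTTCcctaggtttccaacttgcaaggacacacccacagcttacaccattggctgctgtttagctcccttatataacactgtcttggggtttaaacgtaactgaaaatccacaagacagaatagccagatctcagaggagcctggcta
IFIT5: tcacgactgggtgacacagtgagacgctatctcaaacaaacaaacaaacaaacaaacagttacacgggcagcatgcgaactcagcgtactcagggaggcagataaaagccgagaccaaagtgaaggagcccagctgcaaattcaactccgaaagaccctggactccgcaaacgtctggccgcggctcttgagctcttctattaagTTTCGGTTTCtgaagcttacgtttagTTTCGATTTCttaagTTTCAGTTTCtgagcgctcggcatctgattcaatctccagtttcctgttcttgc
The core, searched on either strand as GAAA, 2 bases of any kind and GAAA again, occurred 2 times in IFIT1 and 3 times in IFIT5. It was found in 25 of the 37 list members with a promoter in the table (67.6%), against 3.65% of all 27305 promoters and 2.96% of those of tested genes. Members with the core were 11 of 13 that passed for the line difference and 14 of 24 that did not, as a description with no test. Other lists were searched for motifs of their own. The NF-kB motif was in 1 of 3 members that passed and 13 of 20 that did not, and the mitosis motif in 1 of 2 and 24 of 32. For the ATF4 list these were 0 of 2 and 8 of 26, and for the sterol list 0 of 2 and 1 of 22.

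**Figure D3:**
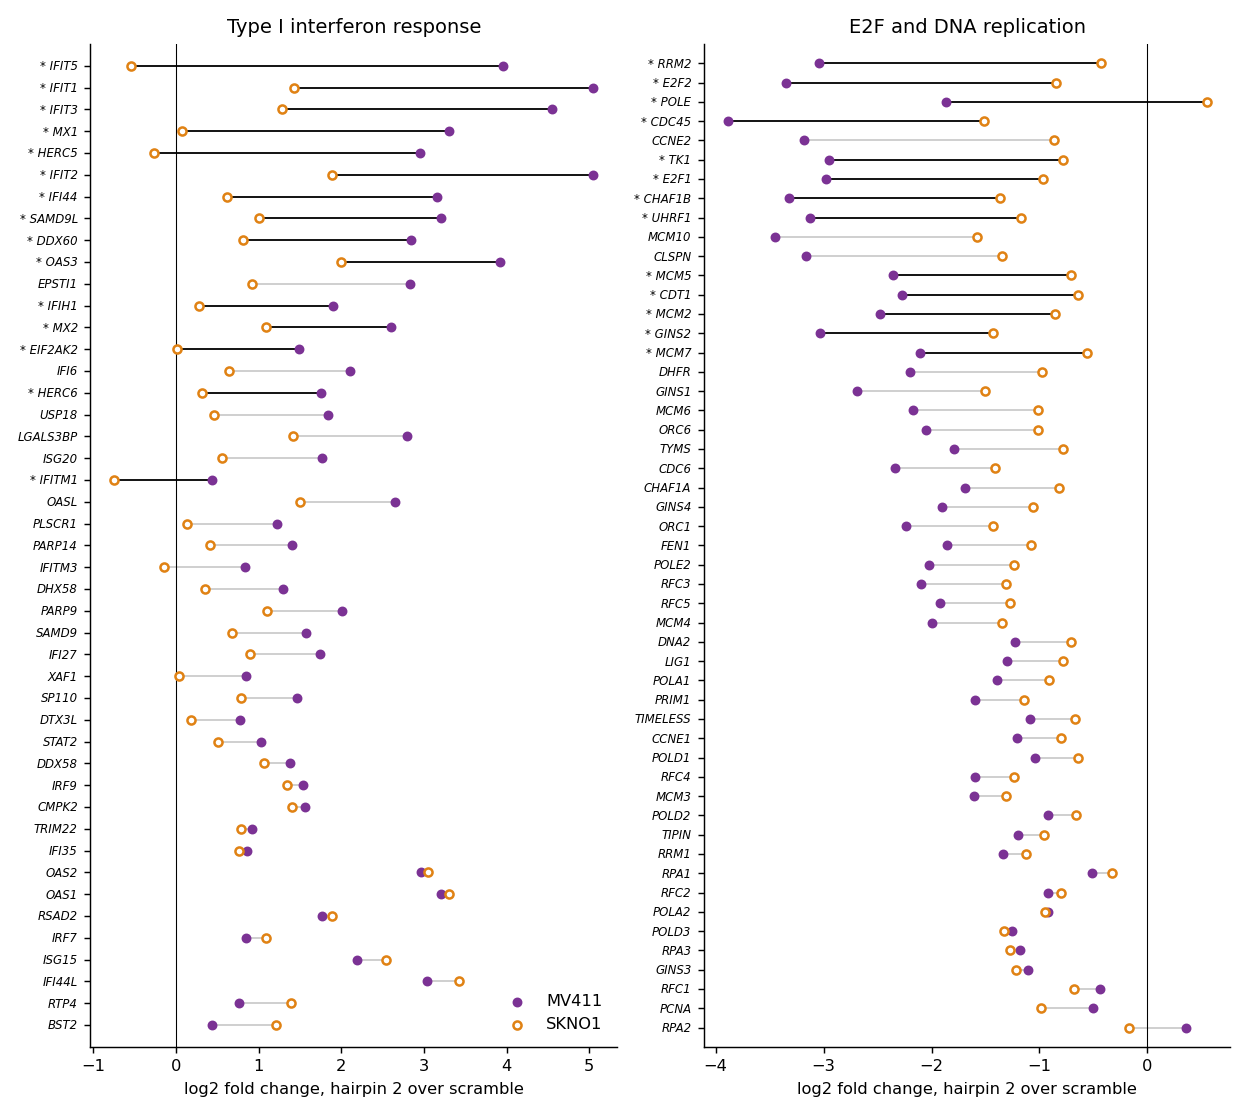
Hairpin 2 effect of 45 of the 46 tested members of the interferon list (left) and of the 51 of the E2F and replication list (right), with filled points for MV411, open points for SKNO1 and the members ordered by line difference on the y axis. An asterisk and a black line mark a line difference past the threshold (15 and 13 members). IFIT5 and HERC5 are to the right of 0 in MV411 and to its left in SKNO1, and POLE is to the left in MV411 and to the right in SKNO1.

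Of 39 tested genes of mature myeloid cells, 26 rose in MV411 (all genes 8.48%) with a median of 1.43, and 10 in SKNO1 (all genes 5.98%) with a median of 0.62. A line difference past the threshold was found in 6 (all genes 1.25% higher), each positive: TLR8, CX3CR1, ITGAM, CD86, FCGR2A and TLR4. In SKNO1, TLR8, CX3CR1 and ITGAM averaged under 1 CPM. ITGAM, the integrin chain CD11b of monocytes and neutrophils, had 27.5, 23.7 and 15.8 CPM in MV411 with hairpin 2, against 3.88, 2.70 and 1.22 CPM in MV411 scramble libraries. Its SKNO1 levels were 0.701, 1.12 and 0.960 CPM with hairpin 2, against 0.733, 0.498 and 0.571 CPM with scramble (line difference 2.49 ± 0.53, adjusted p = 0.0274). CD86, a costimulatory molecule for T cells, had 6.78, 6.04 and 12.2 CPM in MV411 with hairpin 2, against 0.755, 1.53 and 0.792 CPM in MV411 scramble libraries. The SKNO1 libraries had 1.61, 1.73 and 1.505 CPM with hairpin 2, against 1.19, 1.07 and 0.768 CPM with scramble (line difference 2.33 ± 0.47, adjusted p = 0.0223). The groups of CD86 were apart in both lines and those of ITGAM in MV411. TLR8, an RNA sensor of the endosome, had 6.42, 5.19 and 3.16 CPM in MV411 with hairpin 2, against 0.180, 0.0529 and 0.283 CPM in MV411 scramble libraries, and 0.208 CPM or less in each SKNO1 library, so that its line difference of 4.14 ± 0.84 rests on very few reads in SKNO1. The count of 6 was 0 in the fit of all 27 libraries, 1 with the near-alike SKNO1 scramble libraries summed, 3 without replicate 2 of MV411 scramble, and 0 to 9 over all leave-outs of 1 library. DESeq2 called 10 and limma-voom 6.

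C3, the central complement component, rose in both lines by 3.96 ± 0.29 in MV411 and 2.93 ± 0.36 in SKNO1, and NCF1, a subunit of the phagocyte NADPH oxidase, by 2.51 ± 0.21 and 2.01 ± 0.23. NCF4, another subunit of the oxidase, was the member with the smallest p of negative sign, with a line difference of -0.50 ± 0.21 that did not pass (adjusted p = 0.286). Summed over the 45 members of the list, levels were 3380 to 4510 CPM in MV411 with hairpin 2 and 1610 to 2250 CPM in MV411 scramble libraries, and 564 to 649 CPM in SKNO1 with hairpin 2 and 395 to 451 CPM in SKNO1 scramble libraries. The 23 markers of lymphoid and stromal cells moved with the groups too, and their part was not tested: they summed to 409 to 421 CPM in MV411 with hairpin 2 and 223 to 275 CPM in MV411 scramble libraries, and to 348 to 425 CPM in SKNO1 with hairpin 2 and 202 to 280 CPM in SKNO1 scramble libraries, while the defining genes CD3E, MS4A1, COL1A1 and EPCAM were at 0 to 2 counts. In bulk RNA, a change in the number of cells of a kind and a change in RNA per cell cannot be told apart.

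Of 15 tested granule genes of promyelocytes, 3 rose and 3 fell in MV411 (all genes 8.48% and 7.77%), and 4 fell in SKNO1 (all genes 5.76%). The line difference passed in 3 (all genes 1.25% higher), MS4A3, BPI and RNASE2, each positive. BPI had 11 and 21 counts in the SKNO1 hairpin 2 and scramble groups, so that its line difference rests on very few reads there. DESeq2 called 4 of the 15 and limma-voom 0, 2 passed without replicate 2 of MV411 scramble, and 0 passed with the near-alike SKNO1 scramble libraries summed. MS4A3, a membrane protein of granulocyte precursors, had 209.9, 178 and 254 CPM in MV411 with hairpin 2, against 348, 269 and 386 CPM in MV411 scramble libraries. It had 0.857, 0.707 and 0.441 CPM in SKNO1 with hairpin 2, against 5.88, 2.46 and 5.62 CPM in SKNO1 scramble libraries. It fell in SKNO1, with an effect of -2.80 ± 0.34, while the effect of -0.64 ± 0.27 in MV411 did not pass (line difference 2.15 ± 0.43, adjusted p = 0.0217). RNASE2, a ribonuclease of eosinophil granules, had an effect of 0.05 ± 0.22 in MV411 and fell in SKNO1, with an effect of -1.28 ± 0.23 (line difference 1.33 ± 0.32, adjusted p = 0.0475).

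HLA class II genes, which present antigen on monocytes and B cells, rose in 11 of 12 tested members in MV411 (all genes 8.48%; median 2.41) and in 7 in SKNO1 (all genes 5.98%; median 1.37). A line difference past the threshold was found in 2 (all genes 1.25% higher), HLA-DPA1 and HLA-DRA. HLA-DPA1 had 74.7, 98.4 and 46.9 CPM in MV411 with hairpin 2, against 6.87, 8.20 and 10.0 CPM in MV411 scramble libraries. For SKNO1 the values were 16.1, 21.98 and 20.8 CPM with hairpin 2, against 9.91, 9.43 and 9.99 CPM with scramble. The groups were apart in both lines, with a line difference of 2.13 ± 0.33 (adjusted p = 0.00640). CD74, the invariant chain that chaperones these molecules, rose by 1.22 ± 0.24 in MV411 and 1.18 ± 0.24 in SKNO1, with a line difference of 0.05 ± 0.33 (adjusted p = 0.994).

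Of 27 tested NF-kB target genes, 12 rose in MV411 (all genes 8.48%) and 5 in SKNO1 (all genes 5.98%), and the line difference passed in 3 (all genes 1.25% higher), BIRC3, IL1B and CXCL8, each positive. BIRC3, an inhibitor of cell death induced by NF-kB, had 13.7, 9.97 and 6.76 CPM in MV411 with hairpin 2, against 2.12, 2.59 and 2.09 CPM in MV411 scramble libraries. It had 29.03, 36.5 and 29.9 CPM in SKNO1 with hairpin 2, against 62.4, 31.3 and 60.1 CPM in SKNO1 scramble libraries. The MV411 groups were apart, and in SKNO1 replicate 2 of scramble lay among the hairpin 2 libraries (line difference 2.84 ± 0.40, adjusted p = 0.00404). IL1B, the cytokine interleukin-1 beta, had 12.6, 6.53 and 7.21 CPM in MV411 with hairpin 2, against 2.44, 1.98 and 1.44 CPM in MV411 scramble libraries. In SKNO1 it had 22.8, 17.6 and 17.8 CPM with hairpin 2, against 21.8, 20.5 and 21.0 CPM with scramble (line difference 2.29 ± 0.35, adjusted p = 0.00596). CXCL8, the neutrophil chemokine interleukin-8, rose by 3.10 ± 0.24 in MV411 and 1.19 ± 0.20 in SKNO1 (line difference 1.91 ± 0.31, adjusted p = 0.00724). TNF went the other way in sign, with a line difference of -1.48 ± 0.48 that did not pass (adjusted p = 0.146).

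Of 38 tested lysosomal genes, 27 rose in MV411 (all genes 8.48%) with a median of 0.80, and 13 in SKNO1 (all genes 5.98%) with a median of 0.45. The line difference passed in 5 (all genes 1.25% higher), CTSL, PSAP, LIPA, ASAH1 and CTSS, each positive. PSAP, the precursor of the sphingolipid activator saposins, had 765, 926 and 655 CPM in MV411 with hairpin 2, against 119, 155 and 175 CPM in MV411 scramble libraries. It had 898, 813 and 756 CPM in SKNO1 with hairpin 2, against 668, 421 and 658 CPM in SKNO1 scramble libraries. The groups were apart in both lines (line difference 1.89 ± 0.29, adjusted p = 0.00596). CTSL, the protease cathepsin L, had 5.94, 4.74 and 5.74 CPM in MV411 with hairpin 2, against 0.360, 0.688 and 0.368 CPM in MV411 scramble libraries. Its SKNO1 levels were 2.05, 1.52 and 2.02 CPM with hairpin 2, against 1.97, 0.921 and 2.09 CPM with scramble, where the groups overlapped (line difference 3.34 ± 0.47, adjusted p = 0.00439). The count of 5 was 2 in the fit of all 27 libraries, 2 with the near-alike SKNO1 scramble libraries summed, 2 without replicate 2 of MV411 scramble, and 2 to 8 over all leave-outs of 1 library. DESeq2 called 12 and limma-voom 5, and 10 passed with the replicate block in MV411.

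In the list of 16 tested APOE and LXR lipid efflux genes, 8 rose in MV411 (all genes 8.48%) and 1 in SKNO1 (5.98%). In MV411 1 fell (7.77%), and in SKNO1 3 did (5.76%). The line difference passed in LPL, GPNMB and ABCG1 (all genes 1.25% higher), each positive. ABCG1, the exporter of cholesterol to lipoproteins, had 27.9, 45.9 and 38.8 CPM in MV411 with hairpin 2, against 3.67, 8.12 and 9.70 CPM in MV411 scramble libraries. The SKNO1 libraries had 59.3, 57.0 and 52.4 CPM with hairpin 2, against 49.3, 40.3 and 53.1 CPM with scramble (line difference 2.14 ± 0.39, adjusted p = 0.0125). LPL, lipoprotein lipase, had 0 counts in each MV411 scramble library and 0.120 CPM or less in MV411 with hairpin 2, so that no fold is given for MV411, and in SKNO1 it fell, with an effect of -0.86 ± 0.16. Of 30 tested sterol and fatty acid synthesis genes, 4 fell in MV411 (all genes 7.77%) and 13 in SKNO1 (5.76%), with medians of -0.18 and -0.68. The line difference passed in ELOVL6 and MVK (all genes 1.25% higher), both positive. ELOVL6, which lengthens fatty acids, had 4.74, 3.22 and 3.51 CPM in MV411 with hairpin 2, against 3.09, 2.01 and 2.09 CPM in MV411 scramble libraries. It had 6.28, 7.33 and 8.23 CPM in SKNO1 with hairpin 2, against 15.3, 20.8 and 14.4 CPM in SKNO1 scramble libraries, and the line difference was 1.89 ± 0.32 (adjusted p = 0.0101). MVK, mevalonate kinase, had an effect of -0.20 ± 0.16 in MV411 that did not pass and fell in SKNO1, with an effect of -1.18 ± 0.16 (line difference 0.98 ± 0.23, adjusted p = 0.0460).

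Among 21 tested NRF2 and ferritin genes, 11 rose in MV411 (all genes 8.48%) and 4 in SKNO1 (all genes 5.98%), and the line difference passed in 2 (all genes 1.25% higher), ME1 and HMOX1. ME1, the malic enzyme that makes NADPH, had 1.89, 1.30 and 2.20 CPM in MV411 with hairpin 2, against 0.252, 0.264 and 0.226 CPM in MV411 scramble libraries. For SKNO1 the values were 6.96, 7.88 and 7.21 CPM with hairpin 2, against 6.16, 9.13 and 7.27 CPM with scramble (line difference 2.88 ± 0.36, adjusted p = 0.00186). HMOX1, heme oxygenase, rose in both lines, by 4.14 ± 0.35 in MV411 and 2.23 ± 0.30 in SKNO1 (adjusted p = 0.0476 for the line difference). Of 28 tested glycolysis and hypoxia genes, PFKM and HK2 passed for the line difference (all genes 1.25% higher), at 1.14 ± 0.22 and 0.97 ± 0.21. Replicate 3 of SKNO1 with hairpin 2 stood apart in this list, with a mean over its members of -1.16 against -0.297 and -0.165 in its fellows, relative to the scramble mean on the log2 scale. Its part was not tested beyond leaving it out.

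**Figure D4:**
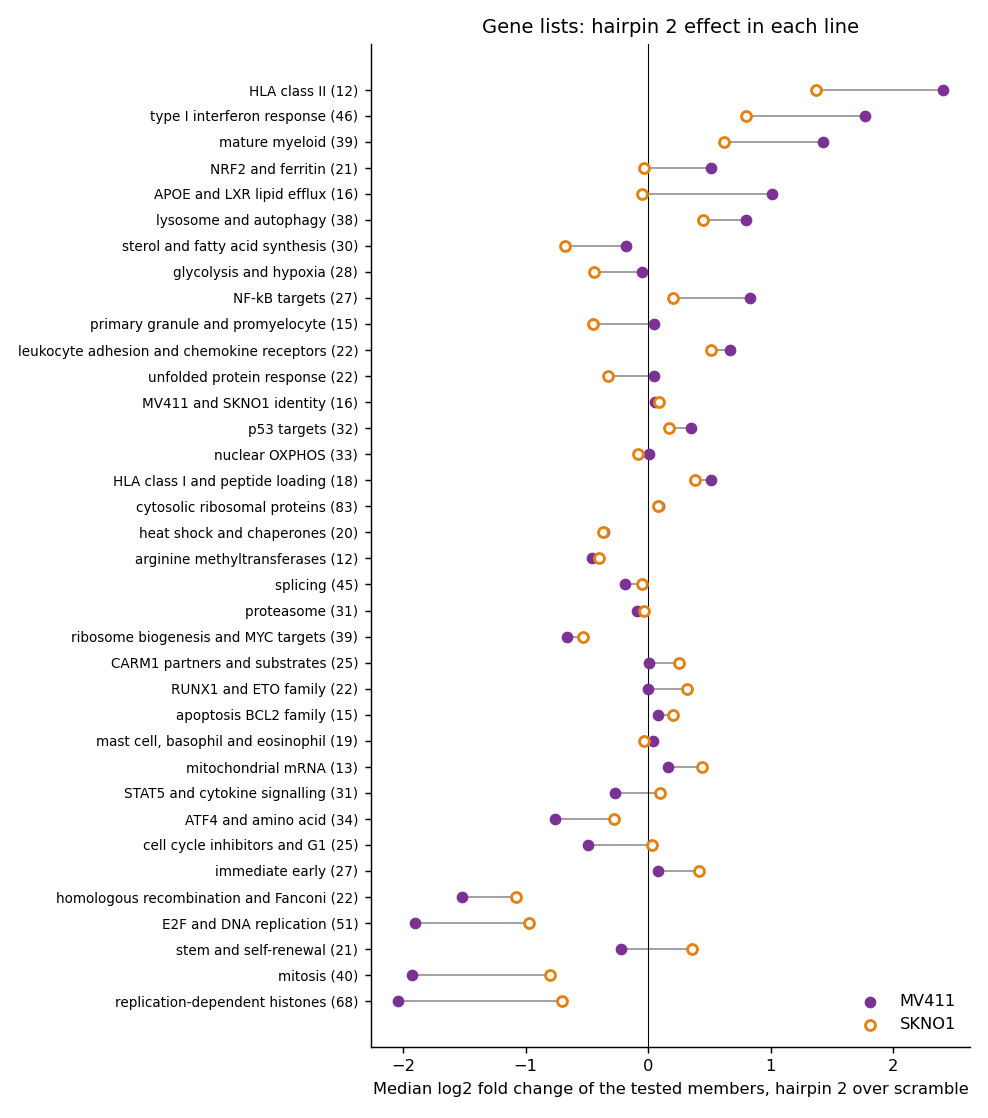
Median hairpin 2 effect (log2 fold change over scramble) of the tested members of each list with at least 12 of them, in MV411 (filled) and SKNO1 (open), with the number of members in brackets and the lists ordered by their median line difference. The widest gaps are those of histones, mitosis, HLA class II, interferon response and APOE and LXR genes, and ribosomal protein genes have medians of 0.09 in MV411 and 0.08 in SKNO1.

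Genes that moved in opposite directions numbered 48 of those tested, and each of the 48 also passed for the line difference. Of these, 31 had levels high enough for the naming rule. PRKAR2B, a regulatory subunit of protein kinase A, had 21.3, 14.1 and 16.5 CPM in MV411 with hairpin 2, against 3.60, 2.04 and 3.54 CPM in MV411 scramble libraries. It had 3.35, 3.82 and 3.48 CPM in SKNO1 with hairpin 2, against 6.96, 9.48 and 7.36 CPM in SKNO1 scramble libraries. It rose in MV411 and fell in SKNO1, with effects of 2.51 ± 0.24 and -1.16 ± 0.23, and its line difference of 3.67 ± 0.33 (adjusted p = 2.64e-04) passed under all 23 alternatives. KCTD12, an auxiliary subunit of GABA-B receptors, had 19.1, 15.2 and 15.2 CPM in MV411 with hairpin 2, against 2.95, 2.86 and 3.20 CPM in MV411 scramble libraries. In SKNO1 it had 1.45, 2.35 and 1.66 CPM with hairpin 2, against 3.37, 3.91 and 3.45 CPM with scramble (line difference 3.42 ± 0.29, adjusted p = 2.17e-04). The tetraspanin CD82 had a line difference of 1.81 ± 0.22, the gelatinase MMP2 of 1.71 ± 0.23 and the endosomal GTPase RAB7B of 1.79 ± 0.25, all 3 by a rise in MV411 and a fall in SKNO1.

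In the other direction, SOX4, a transcription factor of stem and progenitor cells, had 17.3, 16.4 and 18.5 CPM in MV411 with hairpin 2, against 42.8, 36.1 and 42.0 CPM in MV411 scramble libraries. It had 306, 315 and 255 CPM in SKNO1 with hairpin 2, against 216, 189.6 and 220.2 CPM in SKNO1 scramble libraries. The groups were apart in both lines, with an effect of -1.21 ± 0.14 in MV411 and 0.49 ± 0.13 in SKNO1 (line difference -1.70 ± 0.19, adjusted p = 0.00121). TXNDC5, a disulfide isomerase of the endoplasmic reticulum, had 66.9, 64.7 and 95.8 CPM in MV411 with hairpin 2, against 132, 134 and 165 CPM in MV411 scramble libraries. Its SKNO1 levels were 263, 272 and 277 CPM with hairpin 2, against 132, 157 and 128 CPM with scramble (line difference -1.89 ± 0.23, adjusted p = 0.00188). IRX5, a homeobox factor, and PRDM8, a member of the PRDM family of chromatin regulators, had line differences of -1.89 ± 0.24 and -2.29 ± 0.27 (adjusted p = 0.00203 and 0.00142).

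**Figure D5:**
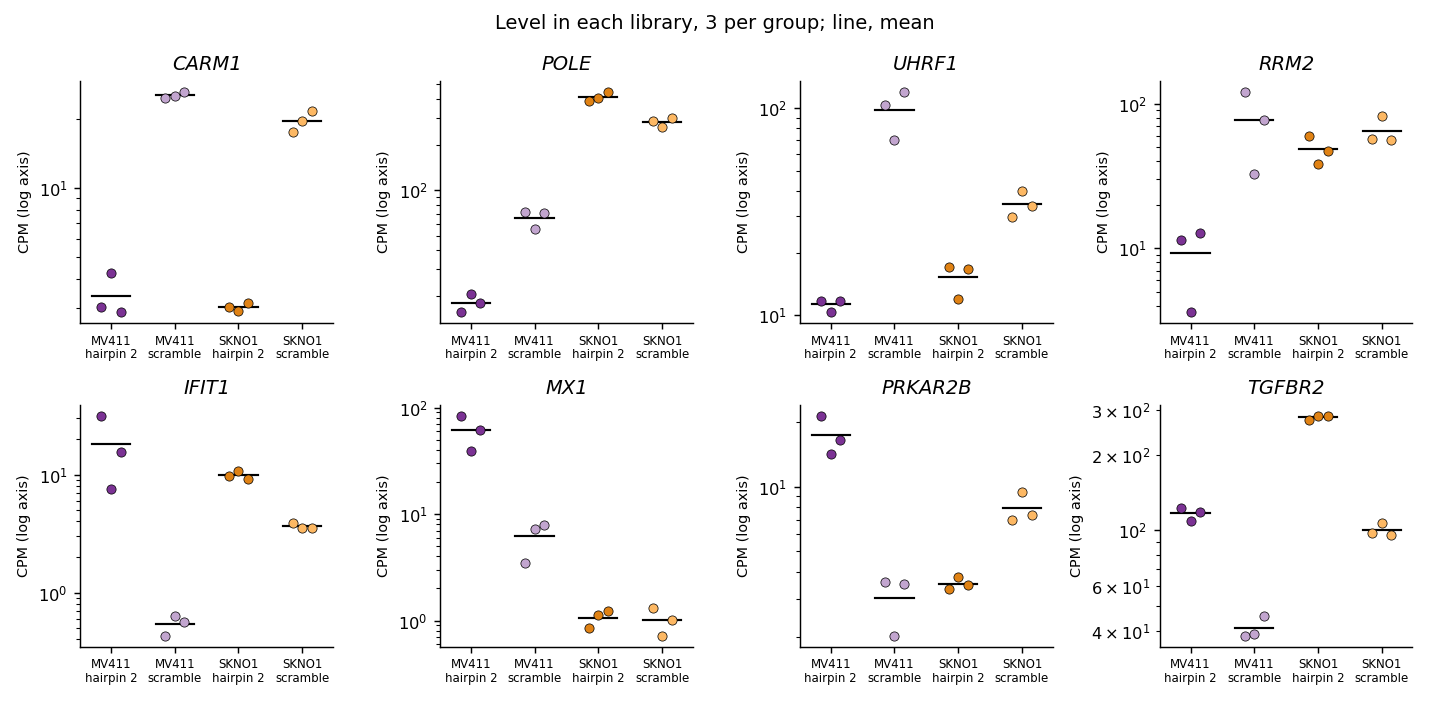
CPM (log axis) of 8 genes in the 3 libraries of each of the 4 groups, with a line at the mean. CARM1 and UHRF1 were lower with hairpin 2 in both lines, POLE was lower in MV411 and higher in SKNO1, PRKAR2B higher in MV411 and lower in SKNO1, and TGFBR2 higher in both.

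Genes of the early response to growth signals and of amino acid stress gave 2 negative line differences in each list. Of 27 tested immediate early genes, 3 rose and 1 fell in MV411 (all genes 8.48% and 7.77%) and 11 rose in SKNO1 (5.98%). The line difference passed in JUND and FOSL2 (all genes 0.884% lower). JUND, a subunit of AP-1, had 31.3, 34.4 and 23.7 CPM in MV411 with hairpin 2, against 28.1, 57.5 and 40.4 CPM in MV411 scramble libraries. The SKNO1 libraries had 14.6, 20.5 and 23.8 CPM with hairpin 2, against 7.83, 6.65 and 11.7 CPM with scramble, and the groups were apart in SKNO1 (line difference -1.67 ± 0.39, adjusted p = 0.0454). Of 34 tested ATF4 and amino acid genes, 22 fell in MV411 (all genes 7.77%) and 9 in SKNO1 (5.76%). The line difference passed in SESN2 and SLC1A5 (all genes 0.884% lower). SESN2, which holds back mTORC1 when leucine is scarce, had 23.0, 20.1 and 25.9 CPM in MV411 with hairpin 2, against 37.9, 32.9 and 39.2 CPM in MV411 scramble libraries. It had 6.21, 6.36 and 5.58 CPM in SKNO1 with hairpin 2, against 3.75, 3.68 and 4.17 CPM in SKNO1 scramble libraries, so that it fell in MV411 and rose in SKNO1 (line difference -1.31 ± 0.21, adjusted p = 0.00702). SATB1, a chromatin organiser in the stem and self-renewal list, had an effect of -0.36 ± 0.12 in MV411 that did not pass (adjusted p = 0.0541, or 0.0273 with the replicate block in MV411) and rose by 0.46 ± 0.12 in SKNO1 (line difference -0.82 ± 0.17, adjusted p = 0.0234). SMARCC1, the SWI/SNF subunit that CARM1 methylates, fell in MV411, with an effect of -0.48 ± 0.14, and had an effect of 0.31 ± 0.14 in SKNO1 that did not pass (line difference -0.80 ± 0.19, adjusted p = 0.0493). It was the 1 of 25 CARM1 partners and substrates to pass (all genes 0.884% lower), and limma-voom called 0 of them.

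The largest line differences also held genes outside the lists. BIN1, an adaptor that bends membranes, had 15.7, 15.7 and 5.74 CPM in MV411 with hairpin 2, against 0.252, 1.11 and 0.679 CPM in MV411 scramble libraries. For SKNO1 the values were 7.45, 8.64 and 9.68 CPM with hairpin 2, against 5.54, 6.20 and 7.11 CPM with scramble (line difference 3.68 ± 0.57, adjusted p = 0.00616). MARCKS, a protein kinase C substrate that binds actin, had 4.41, 4.12 and 1.95 CPM in MV411 with hairpin 2, against 0.396, 0.397 and 0.170 CPM in MV411 scramble libraries. In SKNO1 it had 9.43, 10.8 and 8.69 CPM with hairpin 2, against 11.9, 10.8 and 11.3 CPM with scramble (line difference 3.67 ± 0.44, adjusted p = 0.00156). Both rose in MV411 without overlap, and both passed under all 23 alternatives. HSPA7, a pseudogene close in sequence to HSPA6, and FCGR2C, a near-copy of FCGR2A and FCGR2B, had line differences of 3.91 ± 0.81 and 3.51 ± 0.71, and their reads may be shared with those relatives.

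WT1-AS, an RNA antisense to the transcription factor gene WT1, had 0.722, 0.537 and 0.383 CPM in MV411 with hairpin 2, against 5.68, 3.78 and 2.21 CPM in MV411 scramble libraries. Its SKNO1 levels were 17.9, 17.9 and 12.9 CPM with hairpin 2, against 21.0, 14.3 and 21.1 CPM with scramble (line difference -2.62 ± 0.47, adjusted p = 0.0119). WT1 itself had a line difference of -1.99 ± 0.38 (adjusted p = 0.0169), and since the sources used here do not say whether counting used strand, reads of this pair may be shared. The proliferation-linked regulators TCF19 and MYBL2 had line differences of -2.52 ± 0.44 and -2.44 ± 0.52 (adjusted p = 0.0101 and 0.0276). The long noncoding RNA CH507-338C24.1 had a line difference of -3.78 ± 0.65 (adjusted p = 0.0101).

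The lines' own levels gave a further description. Of the 249 genes with a positive line difference, 166 or 66.7% had a lower mean in MV411 scramble than in SKNO1 scramble libraries, against 51.4% of all genes tested. The median MV411 over SKNO1 ratio of these genes was 0.76 with hairpin 2 and -0.92 with scramble on the log2 scale. Of the 176 genes with a negative line difference, 84 or 47.7% were lower in MV411 scramble, with median ratios of -1.36 with hairpin 2 and 0.16 with scramble. The scramble libraries enter both the ratio and the line difference, so the shares are not independent of the calls.

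Other genes moved in the same direction in both lines. TGFBR2, a receptor of transforming growth factor beta, had 123, 109 and 119 CPM in MV411 with hairpin 2, against 38.2, 38.6 and 45.7 CPM in MV411 scramble libraries. It had 274, 285 and 284 CPM in SKNO1 with hairpin 2, against 97.2, 107 and 96.2 CPM in SKNO1 scramble libraries. It rose without overlap in both lines, by 1.52 ± 0.12 in MV411 and 1.49 ± 0.12 in SKNO1, with a line difference of 0.02 ± 0.17 (adjusted p = 0.994). SEMA6B, a guidance molecule, DAPK1, a kinase that promotes cell death, and the pseudogene ADGRE4P also rose in both lines. Among genes that fell in both, ADIPOR1, the adiponectin receptor, had effects of -1.64 ± 0.16 in MV411 and -1.61 ± 0.15 in SKNO1, and PRPS2, which makes the ribose phosphate for nucleotides, of -2.08 ± 0.22 in MV411 and -2.21 ± 0.22 in SKNO1. ANKRD27, a factor for vesicle traffic, and ECH1, an enzyme of fatty acid breakdown, had effects of -1.40 ± 0.13 and -1.21 ± 0.12 in MV411 and -1.30 ± 0.13 and -1.26 ± 0.12 in SKNO1. In the list of homologous recombination and Fanconi genes, 18 of 22 tested fell in MV411 (all genes 7.77%) and 13 in SKNO1 (all genes 5.76%). Of 39 ribosome biogenesis and MYC target genes, 24 fell in MV411 (all genes 7.77%) and 12 in SKNO1 (all genes 5.76%). A line difference past the threshold was found in 0 genes of either list by edgeR, against 9 and 5 at an unadjusted p under 0.05 and 2 and 2 by DESeq2, 0 of either by limma-voom, and 5 and 2 with the replicate block in MV411. Over all 19900 genes the numbers in that order were 3005, 1018, 364 and 880. BCL2, the survival factor, fell in both lines, with effects of -2.10 ± 0.18 in MV411 and -1.19 ± 0.18 in SKNO1 (line difference -0.91 ± 0.25, adjusted p = 0.0849, or 0.0208 with the replicate block in MV411).

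In other lists few or no members passed for the line difference. SESN2, with a negative line difference, was the 1 of 32 p53 target genes to pass (all genes 0.884% lower). ITGAM and CD82 were the 2 of 22 adhesion and chemokine receptor genes to pass, each positive (all genes 1.25% higher). CD79B, a B cell receptor subunit, was the 1 of 9 lymphoid and stromal genes to pass, and it too was positive. CD79B had 3.73, 3.40 and 2.71 CPM in MV411 with hairpin 2, against 0.971, 0.793 and 0.905 CPM in MV411 scramble libraries, and 39.8, 52.3 and 47.8 CPM in SKNO1 with hairpin 2, against 28.6, 32.9 and 30.4 CPM in SKNO1 scramble libraries (line difference 1.27 ± 0.25, adjusted p = 0.0176), and limma-voom called 0 of the 9. By edgeR, 0 of 31 STAT5 and cytokine signalling genes passed, against 12 at an unadjusted p under 0.05, 4 by DESeq2 and 0 by limma-voom. Over all 19900 genes the numbers in that order were 3005, 1018 and 364. SOCS3, a feedback inhibitor of cytokine receptors in that list, rose by 1.29 ± 0.24 in SKNO1, and its line difference of -1.09 ± 0.34 did not pass (adjusted p = 0.128).

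The count by edgeR was 0 as well, with the numbers at an unadjusted p under 0.05, by DESeq2 and by limma-voom in that order, for 45 splicing genes (7, 2 and 0), 22 unfolded protein response genes (6, 1 and 0) and 20 heat shock and chaperone genes (1, 1 and 0). Over all 19900 genes the numbers in that order were 3005, 1018 and 364, so small numbers here are no result about a list. The edgeR count was 0 for 18 HLA class I and peptide loading genes (5, 0 and 0), 15 genes of the BCL2 family (5, 1 and 0), 16 identity genes of the lines (6, 1 and 0) and 22 genes of RUNX1 and the ETO family (3, 1 and 0). It was likewise 0 for 12 arginine methyltransferase genes, CARM1 among them (1, 0 and 0), 31 proteasome genes (1, 0 and 0), 33 nuclear OXPHOS genes (2, 0 and 0) and 83 cytosolic ribosomal protein genes (1, 1 and 0). Among markers of other blood lineages it was 0 for 7 erythroid (2, 0 and 1), 9 megakaryocyte (3, 0 and 0) and 19 mast cell, basophil and eosinophil genes (3, 0 and 0), and among the RNAs named with the library sizes it was 0 for 13 mitochondrial mRNAs (0, 0 and 0), 2 mitochondrial rRNAs (0, 0 and 0) and 6 structured RNAs (1, 0 and 0). A count of 0 does not mean no effect within a line. Of the 19 mast cell, basophil and eosinophil genes, 6 rose and 5 fell in SKNO1 (all genes 5.98% and 5.76%). In MV411 1 rose and 1 fell (all genes 8.48% and 7.77%). With the near-alike SKNO1 scramble libraries summed, 4 of the 19 passed in SKNO1. With the replicate block in MV411 (all genes 880), 3 unfolded protein response genes, 3 identity genes of the lines, 2 splicing genes and 2 HLA class I genes passed for the line difference, and 1 gene each of the STAT5, heat shock, BCL2 and RUNX1 lists. With the block in each line (all genes 735), 6 STAT5, 4 homologous recombination, 2 unfolded protein response, 2 identity and 2 HLA class I genes passed. Of the splicing, heat shock, BCL2, RUNX1, ribosome biogenesis and mast cell lists 1 gene each did. Without replicate 2 of MV411 scramble, 1 homologous recombination gene passed, and with the near-alike SKNO1 scramble libraries summed no gene of the lists at 0 did.

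The lists with 1 to 3 calls were also counted under 5 other settings, which were DESeq2, limma-voom, without replicate 2 of MV411 scramble, with the near-alike SKNO1 scramble libraries summed and with the replicate block in MV411, in that order. Over all genes the 425 calls became 1018, 364, 383, 187 and 880. The 3 calls among NF-kB targets became 4, 3, 3, 3 and 3, and the 3 among APOE and LXR genes 4, 3, 2, 2 and 4. For immediate early genes the 2 calls became 5, 1, 0, 0 and 6, for ATF4 and amino acid genes 5, 2, 2, 1 and 6, and for sterol and fatty acid genes 4, 2, 1, 1 and 4. For NRF2 and ferritin genes they became 5, 1, 1, 1 and 4, for glycolysis and hypoxia genes 2, 2, 1, 0 and 2, for HLA class II genes 3, 1, 1, 1 and 2, for stem and self-renewal genes 3, 2, 2, 1 and 3, and for adhesion genes 2, 2, 2, 1 and 2. The 1 call among cell cycle inhibitors and G1 genes became 5, 1, 4, 1 and 5, and that among CARM1 partners 3, 0, 1, 0 and 2. For p53 targets the 1 call became 3, 1, 1, 1 and 1, and for lymphoid and stromal genes 2, 0, 1, 1 and 2.

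Hairpin 1 and the MOLM13 line give values of the same genes from a fit of all 27 libraries, with p adjusted over the 21262 genes tested in it. Hairpin 1 is set against the same scramble libraries as hairpin 2, so its values are not independent of those above. CARM1 itself fell less with hairpin 1, with effects of -1.93 ± 0.23 in MV411 and -1.24 ± 0.23 in SKNO1. With hairpin 2 they were -2.92 and -2.70 in the fit of 12 libraries. The hairpin 1 values are thus no like-for-like repeat. MOLM13, like MV411, carries a KMT2A fusion and has scramble libraries of its own. Of the 176 genes with a negative line difference, 39 passed with hairpin 1 in the same direction (0.879% of all genes did), and 77 fell in MOLM13 with hairpin 2 (8.21% of all genes), while 5 rose there. Of the 249 genes with a positive one, 8 passed with hairpin 1 in the same direction (0.171% of all genes), and 73 rose in MOLM13 with hairpin 2 (6.60%), while 5 fell.

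By gene, POLE had a hairpin 1 line difference of -1.42 ± 0.30 (adjusted p = 0.0223) and fell in MOLM13 with hairpin 2, with an effect of -1.37 ± 0.22 (adjusted p = 2.94e-04). UHRF1 had a hairpin 1 line difference of -2.39 ± 0.34 (adjusted p = 8.02e-04) and fell in MOLM13, with an effect of -2.07 ± 0.24 (adjusted p = 2.24e-05). IFIT1 had a hairpin 1 line difference of 2.24 ± 1.26 (adjusted p = 0.481) and an effect of -1.62 ± 0.84 in MOLM13 (adjusted p = 0.196), and neither passed. MX1 did not pass either, at 1.73 ± 1.21 for the hairpin 1 line difference (adjusted p = 0.612) and -1.15 ± 0.80 in MOLM13 (adjusted p = 0.350). PRKAR2B had a hairpin 1 line difference of 0.27 ± 0.91 (adjusted p = 0.980) and SOX4 one of 0.17 ± 0.32 (adjusted p = 0.921). Within MV411, hairpin 1 gave PRKAR2B an effect of -1.70 ± 0.67, opposite in sign to the 2.51 of hairpin 2. Its SKNO1 effect was negative with both hairpins, at -1.97 ± 0.615 with hairpin 1. For SOX4, hairpin 1 gave 0.12 ± 0.23 in MV411, where hairpin 2 gave -1.21, and -0.05 ± 0.22 in SKNO1. None of these hairpin 1 effects passed. The effects of PRKAR2B and SOX4 in MOLM13 were 0.66 ± 0.58 (adjusted p = 0.462) and -0.03 ± 0.23 (adjusted p = 0.961), and neither passed.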

How the data were processed

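Total RNA of cell lines was depleted of rRNA and sequenced from stranded libraries, per the labels' protocols. The submitters' processing notes name STAR 2.5.3, RSEM with no version, and GRCh38.p7. The deposited table holds the authors' expected counts per gene, which were rounded to whole numbers before testing, since 30.39% of non-zero values were not whole (tolerance 1e-09). No filter or strand setting is given in the sources used here. Gene positions are from GENCODE 29 (57388 of 57992 identifiers matched).

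Libraries were grouped by cell line and hairpin from the labels. Genes passed edgeR's filterByExpr (minimum count 10, minimum total 15) and were fitted with edgeR 4.0.16 in R 4.3.3 (TMM, quasi-likelihood F-test) with a mean for each of 4 groups and 12 libraries. The line difference is a contrast of those means, the SE is the log2 value over the square root of F, and tests are two-sided. The fit was tested on simulated data. The labels number the replicates but do not say whether they were separate cultures, so that p-values measure the spread between these libraries, which may be technical. Deviations from the group means of same-numbered libraries correlated at 0.162, 0.52 and 0.233 in MV411, all above 0.1. Replicate 3 with hairpin 2 correlated more with scramble replicate 1 (0.272), which is above 0.1 too. Pairing by number in MV411 is thus an assumption made from the data and not the labels. A fit with the number as a block in MV411 was therefore added after seeing the data, beside the planned block in each line.

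Named genes are CARM1 and the 10 largest line differences per direction past 0.05. Those 10 had a mean of at least 4 CPM over 12 libraries and 1 CPM in each line, with libraries apart. Opposite and shared genes were taken 5 per direction by smallest p. Each list adds the 3 members of smallest p in its main direction and 1 of the opposite sign. The main direction is that of most members past the threshold, or of the median line difference where neither direction had more. Members of a list that passed are named with it, and OAS1, IRF9, IFITM1, C3, CD74, E2F1, WT1 and HIST2H2AA3 were chosen after their values were seen. The members and the 41 gene lists were chosen with earlier results of these data known. 1 member of the interferon list, counted with it, is not reported here by itself. Line levels use log2(CPM + 0.1). Alternatives were run with limma 3.58.1 (voom) and DESeq2 1.42.0 among others.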

Additional observations from a re-analysis of the deposited data

Results flagged for a closer look

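The hairpin 2 effect differed between MV411 and SKNO1 by the test of the difference itself in 425 genes. The named genes among them are given here with their line difference (MV411 minus SKNO1, log2). No explanation was tested.

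Positive values were 4.51 for IFIT5, 3.61 for IFIT1, 3.27 for IFIT3 and 3.23 for MX1, all interferon-response genes, and 3.91 for the pseudogene HSPA7 and 3.51 for FCGR2C, whose reads may be shared with close relatives. They were 3.68 for BIN1, 3.67 for MARCKS, 3.67 for PRKAR2B and 3.42 for KCTD12. Of genes that rose in MV411 and fell in SKNO1, CD82 had 1.81, MMP2 1.71 and RAB7B 1.79.

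Negative values were -2.62 for RRM2, -2.50 for E2F2, -2.41 for POLE and -2.37 for CDC45, all of DNA replication, and -2.52 for TCF19, -2.44 for MYBL2 and -2.20 for the histone gene HIST2H2AA4. They were -3.78 for CH507-338C24.1, -2.62 for WT1-AS and -2.29 for PRDM8. Of genes that fell in MV411 and rose in SKNO1, SOX4 had -1.70, TXNDC5 -1.89 and IRX5 -1.89.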

How the results depend on the processing

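For the line difference, 425 genes passed in the fit reported. DESeq2 called 1018 (414 of them shared), a fit with no filter on low counts 915, and the fit of all 27 libraries 197. Summing the near-alike SKNO1 scramble libraries gave 187, and leaving out each library in turn 150 to 551. Calls were 177 without MV411 hairpin 2 replicate 1, 186 without MV411 scramble replicate 3, 262, 178 and 184 without SKNO1 hairpin 2 replicates 1, 2 and 3, and 150 and 202 without SKNO1 scramble replicates 1 and 3. Fitting only genes of at least 1 CPM in both lines gave 482, limma-voom 364, RLE scaling 407 and the robust fit 416. The share of higher calls was 58.6% in the fit reported, 40.6% in the fit of all 27 libraries, 49.2% with no filter and 48.0% without MV411 scramble replicate 2. The cause was not tested.

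For MV411, leaving out a library gave 1907 to 3604 calls against 3234, the lowest without hairpin 2 replicate 1 and 2010 without scramble replicate 3. For SKNO1 it gave 900 to 2788 against 2337, with 1423, 900 and 1116 without hairpin 2 replicates 1, 2 and 3 and 1051 and 1397 without scramble replicates 1 and 3, and summing gave 1176.

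Leaving out a library gave 4 to 18 E2F and replication members for the line difference against 13, 7 to 23 interferon members against 15, 0 to 9 mature myeloid members against 6 and 2 to 8 lysosomal members against 5. The fit of all 27 libraries gave 1 interferon, 0 mature myeloid and 2 lysosomal members, and the summed libraries, an alternative added after seeing the data, 5, 9, 1 and 2 in the order above.

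Same-numbered libraries correlated at 0.197, -0.028 and -0.09 in SKNO1, against 0.162, 0.52 and 0.233 in MV411. These values do not settle whether the numbers pair the libraries of either line. With the replicate number as a block in each line, 735 genes passed for the line difference (403 shared), 4112 in MV411 and 3269 in SKNO1, and 9 lysosomal members. With the replicate block in MV411 alone, 880 passed (424 shared), 4366 in MV411 and 3629 in SKNO1, and 10 lysosomal members. The block in MV411 and the list counts under either block were added after seeing the data. In MV411 each hairpin 2 library except replicate 3 correlated best with the scramble library of its number, as did replicate 1 alone in SKNO1.

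No gene that passed in the fit reported changed sign where an alternative tested it. The alternatives use the same libraries as that fit, so this is no independent check. CARM1 did not pass for the line difference under any of the 23 alternatives. Genes under 1 CPM in a line (46 calls in SKNO1, 53 in MV411) rest on few reads there.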
